A study of Homo sapiens with 6 samples.

Results

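The genes described here are 33 genes of DNA replication and S phase. They were chosen by symbol, matched to the gene identifiers of the deposited count table through GENCODE release 29, and grouped by role into the replicative helicase, origin licensing, the polymerases with their clamp, nucleotide supply, chromatin assembly and regulators of S phase entry. The table held 58721 genes, of which 14180 had enough reads to be tested, and 32 of the 33 were among these. The exception was FEN1, the flap endonuclease of lagging strand synthesis. RNA came from cytoplasmic lysates of HEK293T cells, was depleted of ribosomal RNA and was sequenced without selection for poly(A). The double knockout libraries (3) came from HEK293T cells in which ALKBH5 and FTO, the demethylases of N6-methyladenosine in RNA, were removed together with CRISPR/Cas9. The wild type libraries (3) came from HEK293T cells, and their data columns carried the name HEK293G6, which the labels do not explain. The labels state neither the number of knockout clones nor whether the wild type cells were their parents, so a difference between the lines and an effect of the knockout cannot be told apart.

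Replication begins in G1, when the origin recognition complex (ORC), CDC6 and CDT1 load rings of MCM2 to MCM7 onto DNA. At the start of S phase CDC45 and the GINS complex join each ring to form the working helicase, and DNA polymerase alpha with its primase, polymerase epsilon and polymerase delta copy the strands behind it, held by the sliding clamp PCNA that the RFC complex loads. Most of these genes are transcribed by E2F factors once cyclin E with CDK2 has inactivated the retinoblastoma protein. HEK293T cells are a human embryonic kidney line that expresses adenoviral E1A and SV40 large T antigen, viral proteins known to bind the retinoblastoma protein, and they divide rapidly.

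The replication genes of this list were mostly higher in the double knockout, by small amounts. With edgeR's quasi-likelihood test and Benjamini-Hochberg adjustment over all tested genes (adjusted p under 0.05), 22 of the 32 tested genes rose, 3 fell and 7 did not pass. Of all tested genes 57.1% passed, 28.6% as higher and 28.5% as lower. The direction did not hold for replication genes at large: of 83 other tested genes with the same roles, described below, 17 rose and 40 fell. The lists were chosen with earlier results of these data known. The median log2 fold change of the 32 genes was 0.15, against 0.01 for all tested genes, and the median size of their fold changes was 0.17, against 0.25 for all tested genes. None of the 32 reached 2-fold (a log2 fold change of 1 in size), and 5 genes passed with a change of at least 1.5-fold, where 17.8% of all tested genes did. The libraries of the groups did not overlap in 23 of the 32 genes, against 60.6% of all tested genes. The rises depended on the scaling of the libraries. With libraries scaled by the spike-in RNAs GFP and FLuc, whose summed counts were 347 to 440 in double knockout and 316 to 427 in wild type libraries, the median of all tested genes was -0.10 and that of the replication genes 0.04. The genes called higher were then 7, namely E2F2, CDT1, SLBP, E2F1, RFC2, MCM7 and GINS2, and those called lower were 3. MCM4 and CHAF1A, called higher with TMM scaling, had slightly negative values with the spike-ins. Errors were also wider with the spike-ins. MCM6 was at 0.09 (SE 0.09), against 0.19 (SE 0.03) with TMM scaling, and POLE at 0.19 (SE 0.09), against 0.29 (SE 0.04). A lost call there is therefore not by itself a lost rise.

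**Figure D1:**
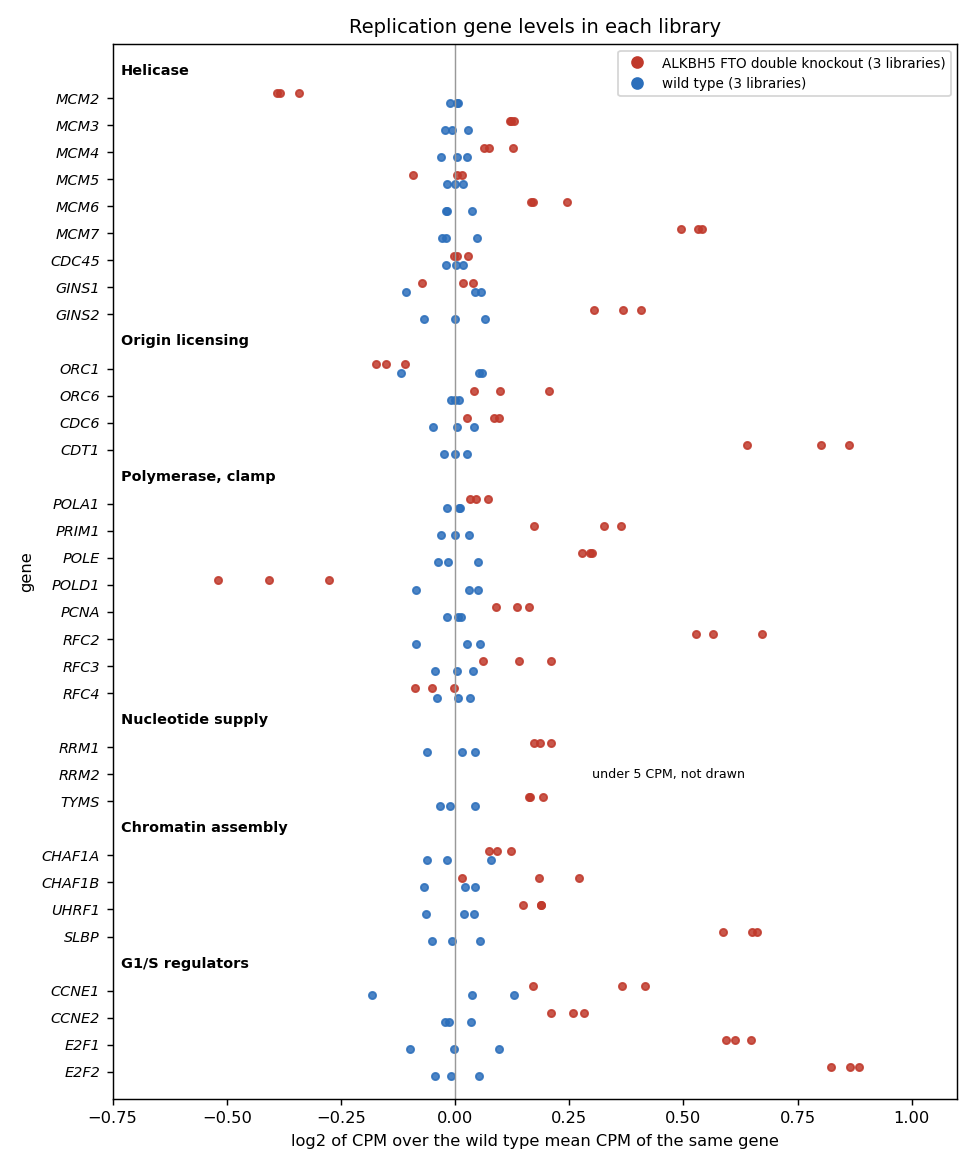
Level of each replication gene in each library, as the log2 of CPM (counts per 1000000 counts, scaled by TMM) over the mean CPM of the 3 wild type libraries. Red points are double knockout libraries and blue points wild type libraries; E2F2, CDT1, SLBP and E2F1 stand clearest to the right and MCM2 and POLD1 to the left, while CDC45, MCM5 and GINS1 overlap. RRM2, under 5 CPM, and FEN1, which was not tested, are not drawn.

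Total gene counts were 5923328, 6433469 and 6136806 in double knockout replicates 1 to 3 and 7400110, 7551825 and 5634648 in wild type replicates 1 to 3. FTO had 53.8, 53.6 and 61.0 CPM in double knockout and 106, 96.5 and 112 CPM in wild type, and ALKBH5 had 186, 186 and 187 CPM against 243, 256 and 235 CPM. Both targeted transcripts were thus lower but present, with log2 fold changes of -0.90 (SE 0.06, edgeR adjusted p = 4.00e-44) and -0.40 (SE 0.04, adjusted p = 2.74e-22). Of 9 kidney progenitor and epithelial marker genes 8 were detected, with a summed level of 289 to 291 CPM in double knockout and 213 to 230 CPM in wild type libraries. The 6 haematopoietic markers summed to 2.16 to 2.62 CPM in double knockout and 1.45 to 1.92 CPM in wild type, and the 4 endothelial markers to 0.999 to 2.40 and 0.726 to 1.63 CPM. The 5 fibroblast markers summed to 8.83 to 11.5 CPM in double knockout and 12.9 to 16.8 CPM in wild type. HBB, CD3E, COL1A2 and PAX8 had no count in any library. The part of these levels in the replication gene results was not tested.

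The counts of FEN1 and RRM2 do not measure these genes well. FEN1 (ENSG00000168496.3, chromosome 11, 61792637 to 61797244, hg38) had 3, 2 and 5 counts in double knockout and 0, 3 and 1 in wild type. Of its gene span, 92.6% lies inside FADS2 on the same strand. RRM2, the small subunit of ribonucleotide reductase, had 17, 18 and 18 counts in double knockout and 20, 34 and 10 in wild type, and 81.0% of its span lies inside AC007240.1 on the same strand. Across protein-coding genes, the 223 genes with at least 99% of their span inside other same-strand genes but no shared exonic base had a median total count of 0, against 468 for the 13532 genes with no such overlap. Overlap on the opposite strand did not come with low counts: 128 genes sharing at least 50% of their exonic bases with the opposite strand had a median of 466.5. Low counts of FEN1 and RRM2 can therefore not be read as low expression, and the RRM2 comparison (log2 fold change -0.16, SE 0.28) rests on few counts. PRIM1 lies inside other same-strand genes over 47.8% of its span and POLD1 over 6.56%, and the other tested genes of the list share less than 5%.

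Per kilobase of exon, the 32 tested genes had a median position above 90.4% of all tested genes in wild type, with RRM2 lowest, above 7.62%, and PCNA highest, above 99%. PCNA had 349 CPM per kb in double knockout and 319 CPM per kb in wild type, while CCNE1, CCNE2 and E2F2 had between 10.4 and 13.7 CPM per kb in wild type.

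The helicase genes moved apart from each other: of 9 tested, 5 rose, 1 fell and 3 did not pass, with a median of 0.09. MCM2 to MCM7 encode the 6 different subunits of 1 ring, in which each is present in a single copy. MCM7 (ENSG00000166508.17, chromosome 7, 100092728 to 100101940) had 418, 407 and 421 CPM in double knockout and 283, 299 and 285 CPM in wild type. Every double knockout library was above every wild type library, and the log2 fold change was 0.52 (SE 0.03, adjusted p = 7.26e-45). MCM2 (ENSG00000073111.13, chromosome 3, 127598223 to 127622436) had 253, 254 and 261 CPM in double knockout and 332, 333 and 328 CPM in wild type, again with no overlap but in the other direction. It fell by 0.37 (SE 0.03, adjusted p = 2.38e-23). The ratio of MCM7 to MCM2 per kilobase was 1.64, 1.59 and 1.60 in double knockout libraries and 0.846, 0.890 and 0.860 in wild type libraries. MCM7 thus took 20.0% of the summed level of the 6 genes per kilobase in double knockout and 15.0% in wild type, and MCM2 took 12.4% and 17.3%. The other subunits moved little: MCM6 rose by 0.19 (SE 0.03), MCM3 by 0.12 (SE 0.03) and MCM4 by 0.09 (SE 0.03), and MCM5 had 254 ± 10.4 CPM in double knockout and 258 ± 3.19 CPM in wild type (SD, n = 3 each), which did not pass. The MCM4 call was lost without double knockout replicate 3 or wild type replicate 3.

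**Figure D2:**
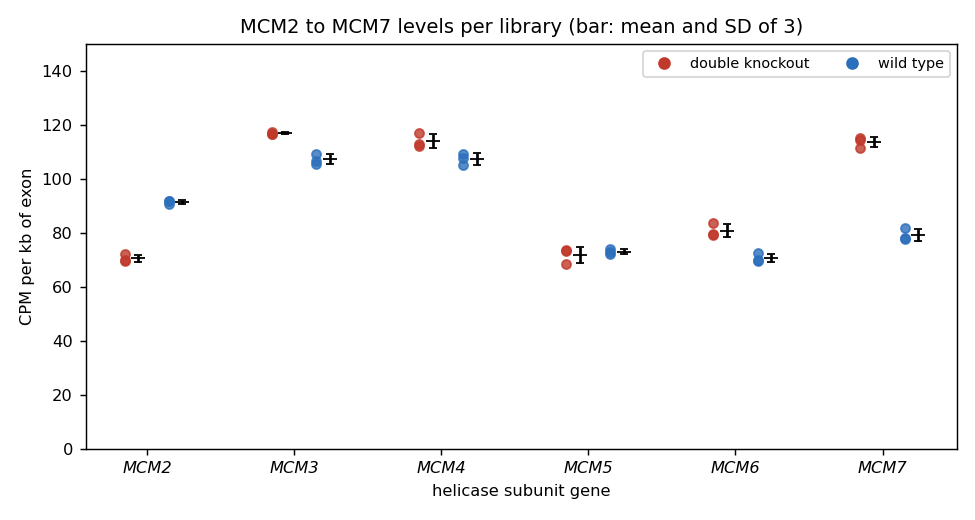
Levels of the 6 helicase ring genes in CPM per kilobase of exon, with double knockout libraries in red to the left and wild type libraries in blue to the right for each gene; black bars are the mean and SD of 3 libraries. MCM2 is lower and MCM7 higher in the double knockout with no overlap, and the double knockout and wild type points of MCM5 overlap.

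Of the factors that turn the ring into a working helicase, the GINS subunit gene GINS2 rose, with 146, 153 and 157 CPM in double knockout and 124, 118 and 113 CPM in wild type. Its groups did not overlap, and the log2 fold change was 0.36 (SE 0.04, adjusted p = 4.39e-14). Its partner GINS1 had 170 ± 6.99 CPM in double knockout and 171 ± 10.6 CPM in wild type (SD, n = 3 each). CDC45 had 116 ± 1.27 CPM in double knockout and 115 ± 1.55 CPM in wild type (SD, n = 3 each), and neither gene passed. The GINS subunit genes GINS3 and GINS4 are not on the list and were called lower. Their log2 fold changes were -0.15 (SE 0.06, with overlapping groups) and -0.18 (SE 0.05).

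Of the 4 origin licensing genes 2 rose, 1 fell and 1 did not pass, and CDT1 had by far the largest change. CDT1, which brings the MCM ring to the origin and is destroyed once S phase begins, had 123, 144 and 138 CPM in double knockout and 80.4, 77.7 and 79.0 CPM in wild type. The lowest double knockout library lay far above the highest wild type library, and CDT1 (ENSG00000167513.8, chromosome 16, 88803213 to 88809258) rose 1.71-fold (log2 fold change 0.77, SE 0.05, adjusted p = 1.28e-43). CDC6, its partner in loading, had 167, 159 and 166 CPM in double knockout and 161, 151 and 157 CPM in wild type, with overlapping groups, and did not pass. ORC1, the large ATPase subunit of the origin recognition complex, fell by 0.15 (SE 0.06), and ORC6, its smallest subunit, rose by 0.12 (SE 0.05). Neither call was stable: the ORC1 call was lost without wild type replicate 1, wild type replicate 2 or double knockout replicate 2, and the ORC6 call without each library except double knockout replicate 3.

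Of the 8 tested genes of polymerases, primase, clamp and clamp loader 5 rose, 1 fell and 2 did not pass, with a median of 0.13. POLE, the catalytic subunit of the leading strand polymerase epsilon, had 221, 218 and 220 CPM in double knockout and 175, 186 and 178 CPM in wild type. It rose by 0.29 (SE 0.04, adjusted p = 1.92e-12). POLD1, the catalytic subunit of the lagging strand polymerase delta, had 76.4, 64.6 and 69.8 CPM in double knockout and 87.3, 94.6 and 95.9 CPM in wild type. It fell by 0.40 (SE 0.06, adjusted p = 2.35e-11), and its values and those of POLE did not overlap between the groups. The ratio of POLE to POLD1 per kilobase was 1.30, 1.51 and 1.42 in double knockout and 0.901, 0.884 and 0.833 in wild type. Neighbouring genes moved in the same directions: the median of the tested genes within 5 Mb was 0.21 for POLE and -0.24 for POLD1. With these medians subtracted, as described below, POLE kept 0.09 and POLD1 -0.16. POLA1, which extends the RNA primer, had 150 ± 2.04 CPM in double knockout and 145 ± 1.55 CPM in wild type (SD, n = 3 each) and did not pass. PRIM1, the primase subunit that makes the primer, rose by 0.29 (SE 0.07).

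The clamp gene PCNA rose by 0.13 (SE 0.03), with 516, 499 and 526 CPM in double knockout and 463, 472 and 474 CPM in wild type. Of the clamp loader genes, RFC2 had 121, 133 and 124 CPM in double knockout and 78.9, 85.3 and 87.0 CPM in wild type and rose 1.51-fold (log2 fold change 0.59, SE 0.05, adjusted p = 4.55e-28). RFC3 rose by 0.14 (SE 0.04), a call that was lost without double knockout replicate 3. RFC4 had 80.2 ± 2.41 CPM in double knockout and 82.8 ± 2.07 CPM in wild type (SD, n = 3 each) and did not pass, so that genes of 1 loader complex took different values.

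Of the 3 genes of nucleotide supply 2 rose and RRM2 did not pass. RRM1, the large subunit of ribonucleotide reductase, had 295, 299 and 292 CPM in double knockout and 248, 267 and 262 CPM in wild type. It rose by 0.19 (SE 0.04, adjusted p = 3.79e-07). TYMS, the thymidylate synthase, had 158, 161 and 158 CPM in double knockout and 140, 145 and 138 CPM in wild type and rose by 0.17 (SE 0.04). TYMS shares 64.6% of its exonic bases with genes on the opposite strand, of which ENOSF1 did not pass (log2 fold change -0.13) and TYMSOS rose by 0.45.

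All 4 genes of chromatin assembly and histone mRNA handling were called higher with TMM scaling, with SLBP the only one still called with the spike-ins. SLBP, which binds the stem-loop of histone mRNAs that lack poly(A), had 227, 238 and 240 CPM in double knockout and 146, 157 and 151 CPM in wild type. It rose 1.55-fold (log2 fold change 0.63, SE 0.04, adjusted p = 1.44e-46). UHRF1, which recognises hemimethylated DNA behind the fork, had 179, 179 and 174 CPM in double knockout and 162, 150 and 159 CPM in wild type and rose by 0.18 (SE 0.04). The subunits of chromatin assembly factor 1, CHAF1A (0.09, SE 0.04) and CHAF1B (0.16, SE 0.05), were called higher, but in each the libraries of the groups overlapped. The CHAF1A call was lost without each library except double knockout replicate 3 and wild type replicate 2, and the CHAF1B call without double knockout replicate 1 or wild type replicate 1.

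The 4 regulators of S phase entry were also all called higher, of which E2F1 and E2F2 were still called with the spike-ins, and E2F2 had the largest fold change of the list. E2F2 (ENSG00000007968.6, chromosome 1, 23506430 to 23531220), an activating E2F factor, had 130, 132 and 126 CPM in double knockout and 70.8, 73.9 and 69.2 CPM in wild type. It rose 1.81-fold (log2 fold change 0.85, SE 0.05, adjusted p = 1.36e-49). E2F1, another activating factor of the family, had 162, 164 and 168 CPM in double knockout and 100, 107 and 115 CPM in wild type and rose 1.54-fold (log2 fold change 0.62, SE 0.04, adjusted p = 4.33e-37). E2F genes outside the list went both ways. E2F3 (-0.18), E2F5 (-0.49) and E2F7 (-0.29) were called lower. E2F4 (0.23) and E2F8 (0.27) were called higher, and E2F6 (0.07) did not pass. The cyclin E genes had lower CPM than E2F1 and E2F2 and moved less than these. Per kilobase of exon in wild type, CCNE1 (12.3) and CCNE2 (10.4) were close to E2F2 (13.7) and below E2F1 (42.9). CCNE1 had 34.1, 32.9 and 28.8 CPM in double knockout and 26.3, 22.5 and 28.0 CPM in wild type and rose by 0.33 (SE 0.09), and CCNE2 had 42.8, 41.4 and 43.5 CPM in double knockout and 35.5, 36.7 and 35.2 CPM in wild type and rose by 0.25 (SE 0.08). CCNE2 shares exons with INTS8 on the opposite strand, which fell by 0.20.

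Genes of whole chromosome parts moved together between these lines, so each replication gene was set beside the tested genes within 5 Mb of it (13 to 204 genes, none of them on the list). Across the 32 genes the fold change and the median of its neighbours had a Pearson correlation of 0.64 and a Spearman correlation of 0.56, given as a description, since genes share chromosome parts and libraries. SLBP lies on chromosome 4 among 67 genes with a median of 0.49, of which 59 were called higher and 0 lower, and kept 0.14 when that median was subtracted, against 0.93 when the chromosome's median was. MCM2 lies among 65 genes with a median of -0.56, of which 2 were called higher and 48 lower, and was 0.19 above them, but 0.02 above within 2 Mb and 0.07 above the chromosome's median. MCM7 (neighbours 0.26) kept 0.26, RFC2 (0.28) kept 0.31 and POLD1 (-0.24) kept -0.16, and with the 2 Mb and whole-chromosome windows MCM7 kept 0.17 and 0.48, RFC2 0.30 and 0.55, and POLD1 -0.18 and -0.38. POLE (neighbours 0.21) kept 0.09, and 0.11 and 0.20 with the 2 Mb and whole-chromosome windows. CCNE1, among neighbours at 0.40, was at -0.07 with this window only: it was at 0.0047 within 2 Mb (8 genes), 0.30 within 10 Mb and 0.35 for the chromosome. E2F2, CDT1, E2F1 and GINS2 had neighbours at 0.14, 0.05, 0.05 and 0.01 and kept 0.72, 0.72, 0.58 and 0.35, and CCNE2, among neighbours at -0.16, was 0.41 above them. After subtraction 23 of the 32 genes were above their neighbours and 9 below, with a median of 0.08, and 3 called genes (MCM2, CHAF1A and CCNE1) turned sign. Which called genes turned depended on the window: within 2 Mb they were 4 (MCM2, CHAF1A, CHAF1B and RRM1), within 10 Mb 2 (MCM2 and CHAF1A) and for the whole chromosome 1 (MCM2).

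**Figure D3:**
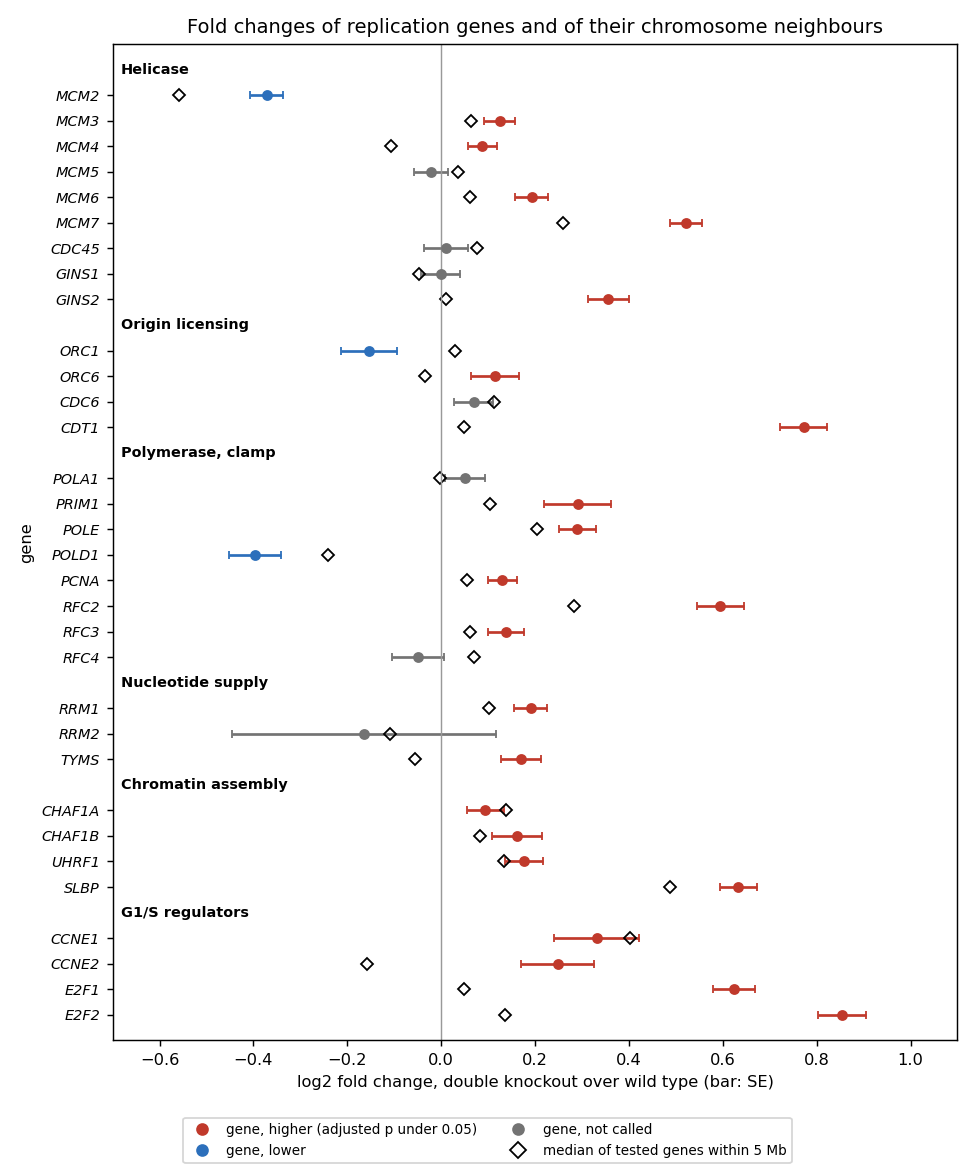
Fitted log2 fold change of each of the 32 tested genes with its SE (filled circles, red for called higher, blue for called lower, grey for not called) and the median of the tested genes within 5 Mb (open diamonds). SLBP and CCNE1 lie close to raised neighbourhoods and MCM2 in a lowered one, whereas E2F2, CDT1 and E2F1 lie far from diamonds near 0.

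The list holds only part of the replication machinery, and 85 further genes with the same roles were more often lower than higher, to a degree that depended on the scaling. Of the 83 that were tested, 17 rose, 40 fell and 26 did not pass, with a median log2 fold change of -0.09. With upper quartile scaling 25 were called higher and 29 lower, with a median of -0.03, and with spike-in scaling 6 were called higher and 40 lower. POLA2 and POLD4, which also lie mostly inside same-strand genes, did not have enough reads. Of 15 further genes of the helicase group, GINS3 and GINS4 among them, 0 rose and 10 fell. They included TOPBP1, which helps CDC45 and GINS to join the ring (133 ± 4.40 CPM in double knockout and 200 ± 6.08 CPM in wild type, SD, n = 3 each; fell by 0.58), and MCM9, a relative of the MCM subunits (fell by 0.82). Of 9 further origin genes 5 fell and 1 rose, with ORC3 and the kinase activator gene DBF4 each lower by 0.28 (log2 fold change -0.28) and the ORC-associated LRWD1 higher by 0.54. The 20 tested polymerase, clamp and ligase genes were balanced, with 7 higher and 6 lower. The single-strand binding protein gene RPA2 rose by 0.48 and the large clamp loader subunit gene RFC1 by 0.49, while the ligase gene LIG1 fell by 0.49. The polymerase delta subunit gene POLD2 fell by 0.38, and POLD3, of the same polymerase, did not pass (0.06). With the median of the neighbours within 5 Mb subtracted, RPA2 kept 0.41, RFC1 0.08, LIG1 -0.22 and POLD2 -0.13.

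Of 10 further genes of nucleotide supply 4 rose and 4 fell. The nucleotide pyrophosphatase gene DCTPP1 rose by 0.23 and the thymidine kinase gene TK1 by 0.19, and the kinase genes DCK and CMPK1 fell by 0.52 and 0.13. Of 12 further chromatin genes 2 rose and 6 fell. The histone chaperone paralogs moved apart, in that ASF1B rose by 0.29 and ASF1A fell by 0.74, and NASP, another histone chaperone, fell by 0.32, while RBBP4, a further subunit of chromatin assembly factor 1, rose by 0.09 (-0.01 with spike-in scaling). Of 17 further cell cycle regulators 3 rose and 9 fell. Cyclin A2, which follows cyclin E in S phase, fell strongly (CCNA2, 104 ± 3.22 CPM in double knockout and 186 ± 8.13 CPM in wild type, SD, n = 3 each; log2 fold change -0.83, SE 0.04, adjusted p = 7.08e-61). TFDP2, a dimer partner of E2F factors, fell by 0.83, whereas the retinoblastoma gene RB1 rose by 0.29 and the repressive factor gene E2F4 by 0.23. Several of these genes also lie in chromosome parts that moved: TOPBP1 was 0.02 above its neighbours after subtraction, DCK, which lies largely inside a same-strand gene, 0.12 above, while CCNA2 (-0.18) and TFDP2 (-0.26) were below theirs. ASF1A lies within the span of MCM9 on chromosome 6, on the opposite strand. Both had neighbours at -0.41, and ASF1A kept -0.34 and MCM9 -0.41. ASF1B, among neighbours at 0.15, kept 0.14. After subtraction 28 of the 83 genes were above their neighbours and 55 below.

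**Figure D4:**
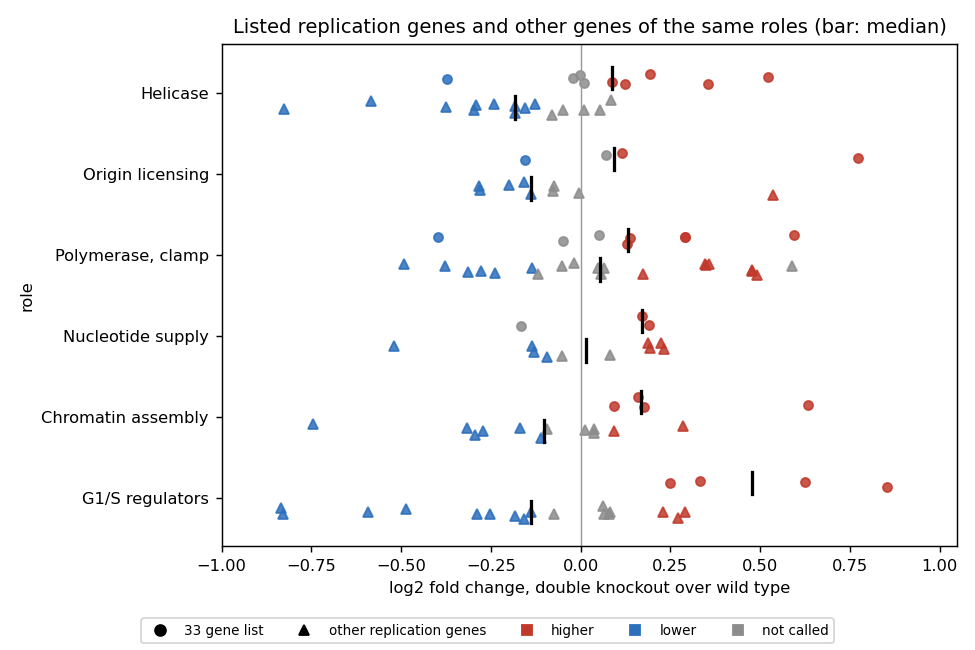
Log2 fold changes of the 32 tested genes of the list (circles) and of 83 other replication genes (triangles) by role, coloured by call, with black bars at the medians and small random vertical offsets. With the TMM scaling plotted, the circles have medians above 0 in every role (with spike-in scaling those of the helicase and licensing genes are -0.017 and -0.013), and the triangles have medians below 0 for helicase, licensing, chromatin and regulator genes.

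The promoters of the list were searched for the words that E2F factors are known to prefer. Promoter sequences of 30 of the 33 genes were found in RefSeq (GRCh38.p14), the exceptions being CCNE2, MCM4 and MCM5, and the 250 bases before the annotated start were searched on both strands for TTTGGCGC, TTTCCCGC, TTTCGCGC and TTTGCCGC. At least 1 match was present in 13 of the 30 promoters (43.3%), against 2.79% of 27305 promoters of all genes. The CCAAT box, bound by NF-Y and searched as CCAAT on both strands, was in 60.0% of them, against 33% of all promoters. The words may overlap each other, as in MCM6. The stretches of 120 bases before the start are shown for the genes with the largest rises that held an E2F word (E2F2, CDT1, E2F1, MCM7 and GINS2) and for the most clearly lowered genes (MCM2 and POLD1), 5′ to 3′ on the gene's strand, with E2F words and CCAAT boxes in capitals. This choice leaves out SLBP (0.63) and RFC2 (0.59), which rose more than MCM7 and GINS2 but held no E2F word. It also leaves out POLA1, which held a word and did not pass. ORC1, also called lower, held only the 7-letter form described below. The stretches shown are therefore not a comparison of genes that rose with genes that fell.
E2F2 (chr1:23531234-23531353, minus strand): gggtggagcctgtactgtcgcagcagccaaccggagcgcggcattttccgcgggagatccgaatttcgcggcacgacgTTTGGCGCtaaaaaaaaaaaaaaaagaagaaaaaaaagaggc
CDT1 (chr16:88803669-88803788, plus strand): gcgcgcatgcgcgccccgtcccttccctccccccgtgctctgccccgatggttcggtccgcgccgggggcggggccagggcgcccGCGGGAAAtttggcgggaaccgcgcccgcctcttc
E2F1 (chr20:33686386-33686505, minus strand): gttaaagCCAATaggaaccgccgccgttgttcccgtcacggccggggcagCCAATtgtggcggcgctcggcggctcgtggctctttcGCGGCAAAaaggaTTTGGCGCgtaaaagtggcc
MCM7 (chr7:100101398-100101517, minus strand): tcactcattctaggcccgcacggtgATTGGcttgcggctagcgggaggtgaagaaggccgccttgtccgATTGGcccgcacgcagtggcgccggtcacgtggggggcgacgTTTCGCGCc
GINS2 (chr16:85688955-85689074, minus strand): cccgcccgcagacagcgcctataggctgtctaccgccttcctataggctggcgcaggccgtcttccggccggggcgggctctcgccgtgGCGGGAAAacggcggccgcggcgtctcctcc
MCM2 (chr3:127598291-127598410, plus strand): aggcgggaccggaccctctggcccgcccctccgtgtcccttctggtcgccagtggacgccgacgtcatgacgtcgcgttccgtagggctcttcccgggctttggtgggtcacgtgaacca
POLD1 (chr19:50384203-50384322, plus strand): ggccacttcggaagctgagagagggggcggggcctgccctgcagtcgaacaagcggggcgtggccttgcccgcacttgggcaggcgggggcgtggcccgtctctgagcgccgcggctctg
In E2F2 the word began 42 bases before the start, in CDT1 35 bases, in GINS2 31 bases and in MCM7 9 bases, with another MCM7 match 187 bases before it. E2F1 held matches that began 33 and 20 bases before its own start, and CCAAT boxes at 113 and 70 bases. Another E2F1 CCAAT box, outside the stretch shown, began at 179 bases. The MCM2 and POLD1 promoters held none of these words within 250 bases, which says only that these letters are absent from this window.

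Of the 13 genes with an E2F word 12 rose, 0 fell and 1, POLA1, did not pass, with a median log2 fold change of 0.19. Of the 16 tested genes whose promoters held none 8 rose, 3 fell and 5 did not pass, with a median of 0.08. With spike-in scaling 5 of the 13 (E2F2, CDT1, E2F1, MCM7 and GINS2) and 2 of the 16 (SLBP and RFC2) were called higher. Outside the list the same counts were made for the tested genes with a promoter sequence, and a part of the word in the rises was not tested. Among the other replication genes, 9 had the word, of which 1 rose and 6 fell (median -0.18), and 58 had none, of which 13 rose and 24 fell. Among all tested genes outside the list, 29.2% of the 435 with the word and 29.3% of the 9629 without it were called higher.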

How the data were processed

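The submitters' processing notes name cutadapt 2.10, STAR 2.7.6a, featureCounts and the build hg38. The deposited values are raw read counts per gene, with no normalisation by the authors. The library kit was directional per the labels' protocols; the counting settings for strand and overlap are not stated. Gene names, positions and exonic lengths came from GENCODE release 29. The wild type columns were assigned by elimination. The data were analysed in R 4.3.3 with edgeR 4.0.16 (filterByExpr at its defaults, minimum count 10 and minimum total 15; TMM; glmQLFit robust and glmQLFTest, two-sided; Benjamini-Hochberg over 14180 genes, threshold 0.05), and the fit was tested on simulated data. SE is the fold change divided by the root of the F statistic. CPM are counts per 1000000 on TMM-scaled library sizes. A count of 3, the limit that a count of 0 allows, was 0.397 to 0.532 per 1000000 of the unscaled total gene counts. Per-kilobase levels divide by the union of exons. DESeq2 1.42.0 and limma 3.58.1 were alternatives, with other scalings and filters and each library left out. The list and the further gene lists were chosen with earlier results of these data known. The further genes named are the 2 called genes with the smallest p in each direction of each role. GINS3, GINS4, POLD3 and the remaining E2F genes were added as relatives of listed genes. The series' design text calls the replicates biologically independent. The spread between them was small, with a common biological coefficient of variation of 2.40%. For pairs of libraries within a group, the chi-square statistic divided by its degrees of freedom lay between 1.11 and 1.41. For pairs across the groups it lay between 11.8 and 13.9. The SE and adjusted p values rest on this small spread. Whether it reflects variation between independent cultures was not tested.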

Additional observations from a re-analysis of the deposited data

How the results depend on the processing

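Spike-in scaling lowered the counts of higher calls most: 7 genes of the list were called higher, as were 2133 of all tested genes and 6 of the other replication genes, while 3, 4236 and 40 were called lower. Lower calls were fewest with DESeq2 for all tested genes (3138) and with upper quartile scaling for the other replication genes (29). Spike-in scaling also gave the opposite sign to MCM4 (-0.017), CHAF1A (-0.011), RBBP4 (-0.011), CDC45 (-0.098), CDC6 (-0.036) and POLA1 (-0.058). Fits with RLE size factors, upper quartile scaling, DESeq2, limma voom, no low-count filter or a filter at a mean of 5 CPM left 19 to 24 genes of the list higher and 2 or 3 lower. With upper quartile scaling the median of all tested genes was 0.07, with 35.1% of them called higher and 22.8% lower, and MCM5 (0.043), GINS1 (0.064) and RFC4 (0.016) turned sign. GINS1 also turned under the CPM filter (0.016) and with limma voom (0.000665), and CDC45 without the low-count filter (-0.0042). When each library was left out in turn, 19 to 21 genes of the list were higher and 2 or 3 lower, as were 3636 to 3827 and 3772 to 3915 of all tested genes, and 17 or 18 and 35 to 41 of the other replication genes. FTO stayed between -0.96 and -0.86 and ALKBH5 between -0.43 and -0.37. Over these fits MCM5 ranged from -0.043 to 0.0058, GINS1 from -0.063 to 0.031, CDC45 from -0.0085 to 0.012 and RRM2 from -0.39 to 0.26, all of them genes that had not passed. The replicate numbers did not pair the libraries (correlations of deviations 0.011, 0.017 and 0.0085, and no library matched its own number best). With the replicate number as a block, 22 genes of the list were higher and 3 lower, and GINS1 was at 0.000458. The causes were not tested.

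With neighbours taken within 2 Mb, 10 Mb or the whole chromosome, 6, 4 and 3 genes turned sign in place of 6; the whole chromosome was added after seeing the data because chromosome arms were not run. Leaving out RRM2, PRIM1 and POLD1 for their overlap, also chosen after seeing the data, left 21 genes higher and 2 lower. A 7-letter E2F word, added likewise, matched 18 promoters in place of 13. Of these 18 genes 15 rose and 1 fell, and of the 11 tested genes without this word 5 rose and 2 fell. With total counts of 5634648 to 7551825, low genes such as RRM2 and the cyclin E genes have the widest errors.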
